A study of Mus musculus with 32 samples.

Results

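The inbred mouse strains C3H/HeJ and DBA/2J were compared by the hippocampal transcript levels on 8 of the 32 arrays of a survey of 8 strains. The arrays were chosen by the strain in their titles, 4 for C3H/HeJ and 4 for DBA/2J. No mouse was treated, and the labels used here give neither age nor sex. For each strain, hippocampal RNA of 6 mice was combined into 1 pool, cRNA was made from the pool's cDNA in 2 separate syntheses, and duplicate oligonucleotide arrays of the Affymetrix U74Av2 design read each of these preparations. Arrays 1 and 2 carry preparation 1, and arrays 3 and 4 carry preparation 2. The titles of the 4 arrays of each of these strains bear different dates, also within a preparation, and the labels do not say what was done on them. The spread between preparations thus also holds any between days. The replicates of a strain are therefore technical: every p-value below sets the difference between 2 pools against the spread between preparations, and it holds no error between animals. The other 6 strains, with 4 arrays each, were A/J, BALB/cByJ, C57BL/6J, FVB/NJ, SJL/J and the strain whose full name is given with the processing steps; all 6 enter the fit and every range over the other strains.

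C3H mice descend from a cross of a Bagg albino female with a DBA male, so C3H/HeJ and DBA/2J hold stretches of common ancestry beside stretches in which they differ. C3H/HeJ is widely known for a defective Toll-like receptor 4 and for inherited retinal degeneration, and DBA/2J for diluted coat colour and a pigment-dispersing eye disease. The strains also carry different haplotypes of H2, the mouse major histocompatibility complex (MHC), which encodes the cell-surface proteins that present peptides to T cells. In the hippocampus, a region needed for spatial and contextual memory, inbred strains are compared to find transcripts that vary with genetic background.

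Signals are the deposited values on a log2 scale, with values under 1 set to 1, and levels can be compared between strains at 1 probe set but not between probe sets. A strain's value is the mean ± SD of its 2 preparations (n = 2). Differences are C3H/HeJ minus DBA/2J in log2 units ± SE, from a limma fit on the 16 preparations of all 8 strains at the 7453 probe sets of highest mean signal. The median difference over all 7453 was -0.05. RNA was bulk, so fewer cells of a type and less RNA per cell cannot be told apart.

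Array medians ran between 32.8 and 39.6 signal units in C3H/HeJ and between 35 and 39.8 in DBA/2J. Sense-strand control probe sets of actin and Gapdh, which read the strand opposite to the transcript, separated the preparations. Their mean log2 signal was 7.04 and 6.97 on C3H/HeJ arrays 1 and 2 and 5.44 and 5.41 on arrays 3 and 4. DBA/2J read 5.29, 5.28, 5.64 and 5.50. C3H/HeJ preparation 1 thus stood apart from the other 3 preparations of the pair. Its part in the differences was not tested beyond leaving it out, and results are given without it below.

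The strains differed at few probe sets. At a Benjamini-Hochberg adjusted p under 0.05, 98 of 7453 passed (percent called 1.31): 60 were higher in C3H/HeJ (0.805%) and 38 were lower (0.510%). Of the 98, 72 differed by 2-fold or more and 16 by 4-fold or more. Without adjustment, 703 had a p under 0.05. The 4 arrays of C3H/HeJ lay wholly apart from the 4 of DBA/2J at all 98, and at 726 of all tested (9.74%). With the preparation number as a block in the fit, 287 passed (3.85%), all 98 among them; 160 of the 287 were higher and 127 lower. The count was 39 without C3H/HeJ preparation 1, 144 without its preparation 2, 29 without DBA/2J preparation 1 and 57 without DBA/2J preparation 2. All 98 kept their sign in each of those 4 fits. Among the 98, 77 probe sets name 69 genes by a single symbol, and 29 bear a suffix that marks possible reading of several transcripts. On 1 probe set per gene, 1.08% of all 5660 named genes passed, the share beside which the counts for gene lists below stand.

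**Figure D1:**
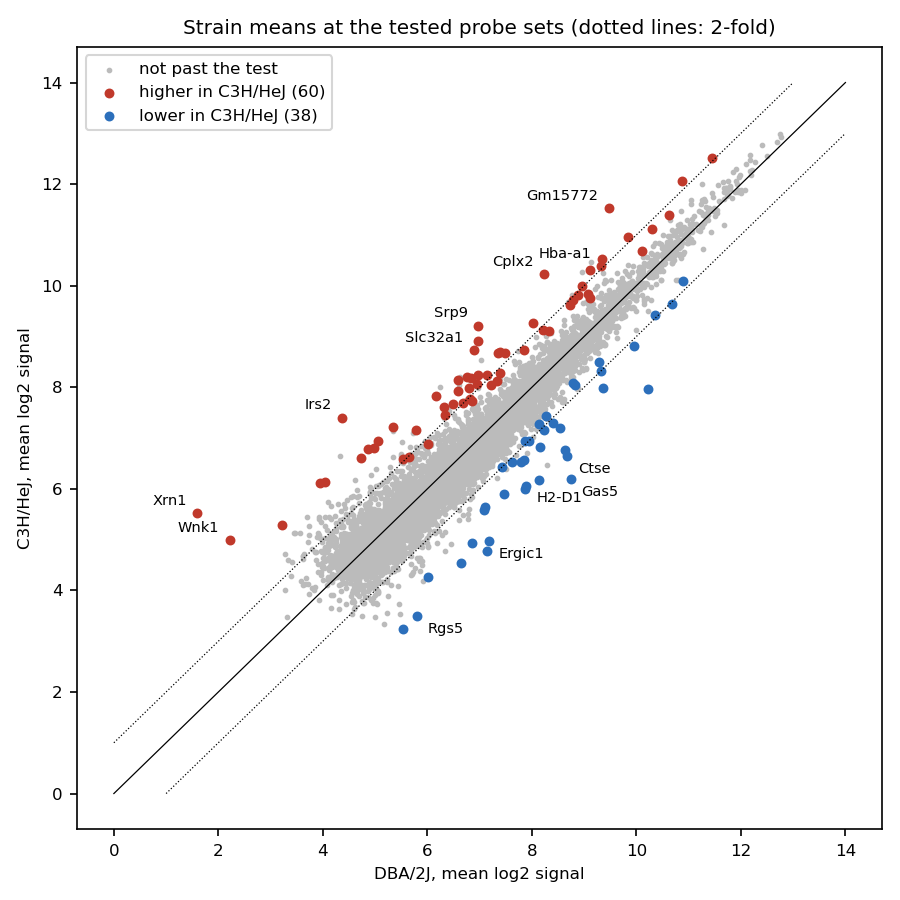
Mean log2 signal of C3H/HeJ (vertical axis) against DBA/2J (horizontal axis) at the 7453 tested probe sets. Red points (60) passed the test and were higher in C3H/HeJ, blue points (38) passed and were lower, and the dotted lines mark a 2-fold difference.

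The number of differing probe sets was in the middle of those for all pairs of strains. Among the 28 pairs that 8 strains form, C3H/HeJ and DBA/2J stood 13th from the fewest, with 98 probe sets against a median of 100 and a range of 25 (FVB/NJ and SJL/J) to 563 (BALB/cByJ and C57BL/6J). C3H/HeJ differed at fewer probe sets from A/J (36) than from DBA/2J, and DBA/2J at fewer from C57BL/6J (72) than from C3H/HeJ. A/J and BALB/cByJ also descend in part or whole from Bagg albino stock, and the count for C3H/HeJ with BALB/cByJ was 112. With the preparation block the pair stood 18th, at 287 against a median of 239.5. These counts share strains and preparations with each other, so they are a description with no test. The sense-strand controls read high on preparation 1 alone in C3H/HeJ, A/J (7.51 and 7.42) and SJL/J (6.95 and 7.27). They were high on every BALB/cByJ array (7.60 to 7.84) and low on every array of DBA/2J and C57BL/6J (5.11 to 5.64 in C57BL/6J). The part of this technical pattern in the counts was not tested.

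**Figure D2:**
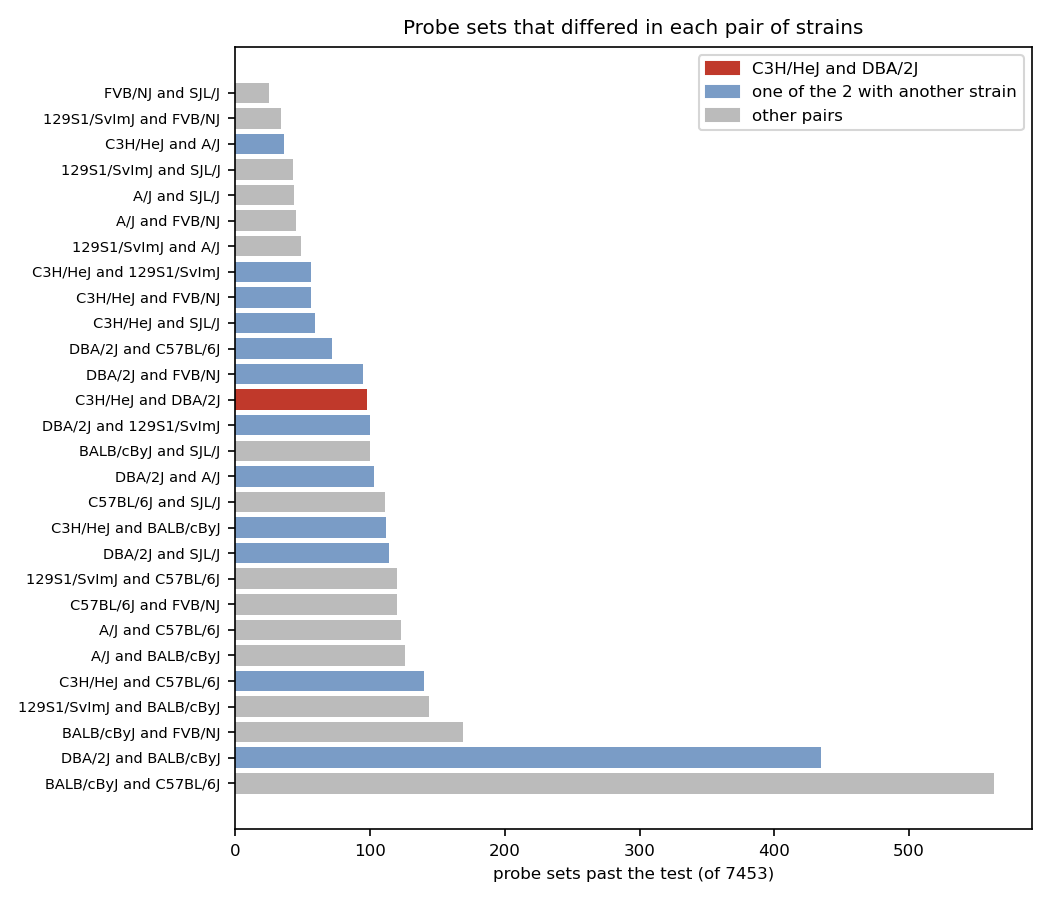
Number of probe sets past the test in each of the 28 pairs of strains. The pair of C3H/HeJ and DBA/2J (red, 98) lies near the middle, and the longest bars belong to pairs that hold BALB/cByJ.

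Of the 30 named genes with the largest differences, 15 higher and 15 lower in C3H/HeJ, 14 passed the test in all 4 fits that left out 1 preparation. They were Ank3, Ctse, Ergic1, Gas5, Gm15772, Grin2b, H2-D1, H2-K1, Irs2, Mprip, Serpina3n, Slc32a1, Srp9 and Washc2. In this paragraph each gene stands on its probe set of largest difference alone. Without C3H/HeJ preparation 1, the genes AI506816, Casp9, Cnpy2, Cplx2, Ddx6, Kif5b, Lin7c, Ncs1, Rgs5, Spock1, Tenm1 and Zbtb7a no longer passed. Without its preparation 2, Tenm1 and Zfp612 did not. The largest loss came with DBA/2J preparation 1 left out, when 15 of the 30 passed: the 14 and Wnk1. Without DBA/2J preparation 2, 21 passed, and AI506816, Cnpy2, Ddx6, Kif5b, Ncs1, Rgs5, Spock1, Tenm1 and Wnk1 did not.

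The class I genes H2-D1 and H2-K1 of the MHC were lower in C3H/HeJ, and the rest of the MHC list did not pass in either direction. H2-D1 and H2-K1 encode heavy chains of the class I molecules that show peptides to cytotoxic T cells, and their promoters share elements known from class I genes. The windows below run 250 bases before to 50 after a listed start, from RefSeq on GRCm38.p6, the C57BL/6J reference; H2-K1 lies at chr17:34000298-34000597 on the minus strand (1 of 2 listed starts) and H2-D1 at chr17:35262844-35263143 on the plus strand. They are shown because these 2 genes moved together. Capitals mark, in order along the strand, GGGGATT (the first letters of the class I kappa B site), TGACGC (the core of the X2 box), CCAAT in either orientation, and the TATA box (TATAAA). In H2-K1 the forward CCAAT and the TATAAA lie in the 50 bases after the listed start. In H2-D1 all marked stretches lie before it.
H2-K1: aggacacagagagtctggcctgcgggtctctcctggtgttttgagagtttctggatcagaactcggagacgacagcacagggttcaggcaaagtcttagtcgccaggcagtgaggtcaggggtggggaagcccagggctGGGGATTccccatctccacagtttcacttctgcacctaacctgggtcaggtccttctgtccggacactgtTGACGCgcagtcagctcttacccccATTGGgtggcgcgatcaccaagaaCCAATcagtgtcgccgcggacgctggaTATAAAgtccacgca
H2-D1: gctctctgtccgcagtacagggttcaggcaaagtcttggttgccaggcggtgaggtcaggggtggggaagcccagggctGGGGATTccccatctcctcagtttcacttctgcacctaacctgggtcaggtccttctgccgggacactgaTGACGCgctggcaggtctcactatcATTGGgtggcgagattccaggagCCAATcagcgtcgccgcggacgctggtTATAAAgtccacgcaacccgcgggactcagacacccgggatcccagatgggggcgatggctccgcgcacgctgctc
Searched on both strands in 32851 promoter windows of the same length, these letters stood in 3.1%, 7.4%, 37.4% and 13.6% of windows. All 4 occurred together in 7 windows (0.021%), the printed ones among them, and no motif overlapped another. The sequences of C3H/HeJ and DBA/2J were not analysed here, and the matches describe the reference only.

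The H2-D1 probe set read 6.40, 5.77, 6.02 and 6.04 on the C3H/HeJ arrays, against 7.95, 8.25, 7.60 and 7.75 on the DBA/2J arrays. The groups were apart by more than 1 log2 unit, and the difference was -1.83 ± 0.19 (3.56-fold lower, limma adjusted p = 0.00011). For H2-K1, C3H/HeJ read 6.57, 6.56, 6.42 and 6.56, against 7.82, 7.58, 7.91 and 7.89 in DBA/2J. All 4 C3H/HeJ arrays lay below all 4 of DBA/2J (-1.27 ± 0.18, adjusted p = 0.0018). At both probe sets C3H/HeJ stood below and DBA/2J above the other 6 strains, whose means were 6.62 to 7.30 for H2-D1 and 6.83 to 7.35 for H2-K1. Both carry the suffix for possible cross-reading within a gene family. Strain variants in the sequences that the probes read were not looked for, here or at any other probe set. Their part in the differences in signal was not tested. A further H2-D1 probe set differed by -0.80 ± 0.21 (adjusted p = 0.1, and 0.022 with the preparation block) and a further H2-K1 probe set by 0.10 ± 0.47 (adjusted p = 0.98). Of 14 tested MHC and antigen presentation genes, those 2 passed the test, both lower, and the list's median was -0.06. H2-Q4, another class I gene, read 4.32, 4.41, 5.11 and 4.48 in C3H/HeJ and 5.35, 6.0, 5.92 and 6.04 in DBA/2J, with no overlap (-1.25 ± 0.42, adjusted p = 0.26). H2-M3, a class I gene that presents formylated peptides, had a difference of like size in the opposite direction: C3H/HeJ read 4.52, 7.18, 6.12 and 5.63, and DBA/2J 5.61, 4.22, 3.86 and 5.1, which overlapped (1.16 ± 0.49, adjusted p = 0.46). H2-DMb1, a chain of the class II peptide-loading molecule, differed by 1.15 ± 0.54 (adjusted p = 0.53), also with overlap. In all, 7 of the 14 had a positive difference. B2m, the light chain of class I molecules, differed by -0.35 (adjusted p = 0.81), and Tap1, a subunit of the peptide transporter, by -0.18 (adjusted p = 0.94).

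Most loci on a list known for their alleles in inbred strains were absent or too dim to be tested, and the tested ones did not pass. Of 20 such genes, 15 had a probe set with a single symbol and 7 were bright enough to be tested, with 0 called by limma with or without the preparation block and 1 at an unadjusted p under 0.05. Tlr4 was not among the 15. Pde6b, the rod phosphodiesterase that is mutated in C3H mice, averaged 3.57 in C3H/HeJ and 3.11 in DBA/2J, under the signal limit for testing. Myo5a, the motor protein behind the dilute coat of DBA/2J, read 5.64, 4.14, 5.41 and 5.62 in C3H/HeJ and 5.17, 4.74, 5.30 and 5.10 in DBA/2J. The groups overlapped (0.12 ± 0.42, adjusted p = 0.96). Oca2, a melanosomal transporter, differed by 0.72 ± 0.48 (adjusted p = 0.75), Pmel, a melanosome matrix protein, by 0.56 ± 0.48 (adjusted p = 0.82), and Nnt, the mitochondrial transhydrogenase, by -0.58 ± 0.30 (adjusted p = 0.6). Gabra2, a GABA-A receptor subunit with low levels in C57BL/6J, differed by 0.48 ± 0.22 (adjusted p = 0.53), and Glo1, a glyoxalase, by 0.15 ± 0.14 (adjusted p = 0.85). Of 13 tested genes of Toll-like receptor signalling and innate immunity, limma called 0, with 0 at an unadjusted p under 0.05, a median of -0.10 and a range of -0.52 (Irak1, a receptor-associated kinase) to 0.31. Of 8 complement genes, limma called 0, and 1 had an unadjusted p under 0.05.

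The lists of GABA, glutamate, vesicle release and plasticity genes each held 1 to 3 genes past the test, some with large differences. Slc32a1, the transporter that loads GABA into synaptic vesicles, read 8.61, 8.77, 8.91 and 8.62 in C3H/HeJ, against 6.77, 6.58, 6.95 and 7.26 in DBA/2J. Every C3H/HeJ array was above every DBA/2J array, by 1.84 ± 0.22 on average (3.57-fold, adjusted p = 0.00058). The other 6 strains spanned 8.68 to 9.12, so that DBA/2J was the strain out of range. Gad1, which makes GABA, differed by -0.39 ± 0.14 (adjusted p = 0.28), and Slc32a1 was the 1 gene past the test among 17 of GABA synthesis, transport and receptors (median 0.07). The preparation block added Cck, the cholecystokinin precursor, which also stands in the list of neuropeptides, at 0.64 ± 0.16 (adjusted p = 0.076, and 0.015 with the block). Its arrays did not overlap.

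Grin2b, a subunit of the NMDA receptor for glutamate, read 6.57, 6.66, 6.42 and 6.79 in C3H/HeJ and 4.55, 4.07, 5.19 and 5.10 in DBA/2J. The groups were apart by over 1 log2 unit (1.88 ± 0.26, adjusted p = 0.0014), and the other strains spanned 6.5 to 7.36. It was the 1 gene past the test of 13 glutamate receptor and transporter genes (median 0.19), and 3 passed with the preparation block, all higher. Grin2a, a related subunit, differed by 0.79 ± 0.21 (adjusted p = 0.1, and 0.022 with the block). Slc1a2, the glial glutamate transporter, differed by 0.95 ± 0.25 (adjusted p = 0.095, and 0.014 with the block). Gria2, the AMPA receptor subunit that limits calcium entry, was lower on 1 of 3 probe sets: C3H/HeJ read 7.34, 8.33, 8.20 and 8.30, against 8.84, 8.81, 8.87 and 8.81 in DBA/2J (-0.79 ± 0.16, adjusted p = 0.021). It lost the call without C3H/HeJ preparation 1 (0.29) and without DBA/2J preparation 1 (0.16) or 2 (0.14). The other Gria2 probe sets differed by -0.36 and 0.05, and neither passed.

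At the synaptic vesicle, 2 of 26 tested genes passed, in opposite directions. Cplx2, a complexin that clamps vesicle fusion, read 10.51, 10.07, 10.19 and 10.16 in C3H/HeJ and 8.17, 7.88, 8.42 and 8.49 in DBA/2J. The strains did not overlap (1.99 ± 0.32, adjusted p = 0.0045, 0.056 without C3H/HeJ preparation 1 and 0.08 without DBA/2J preparation 1). Syt1, the calcium sensor of fast release, read 9.27, 9.02, 9.61 and 9.82 in C3H/HeJ, all below the 10.47, 10.29, 10.30 and 10.38 of DBA/2J (-0.93 ± 0.17, adjusted p = 0.013, 0.2 without C3H/HeJ preparation 1, and 0.14 and 0.09 without DBA/2J preparation 1 or 2). Of 26 plasticity and scaffold genes, 2 were higher and 1 was lower (median 0.15), or 4 and 1 with the preparation block. Camk2a, a kinase of synaptic potentiation, was higher on both of its probe sets, by 1.25 ± 0.27 (adjusted p = 0.037) and 0.89 ± 0.18 (adjusted p = 0.026), and it lost the call without either preparation of either strain. Pde1a, a calcium-dependent phosphodiesterase, was higher by 0.89 ± 0.18 (adjusted p = 0.021), and of the 4 fits without a preparation it passed only in that without C3H/HeJ preparation 1. Lin7c, a scaffold protein of synaptic and epithelial junctions, read 6.12, 6.45, 7.02 and 7.44 in C3H/HeJ, against 8.81, 8.63, 8.62 and 8.47 in DBA/2J. All 4 arrays were lower (-1.88 ± 0.31, adjusted p = 0.0056, 0.088 without C3H/HeJ preparation 1 and 0.08 without DBA/2J preparation 1). Ank3, ankyrin-G of the axon initial segment, read 9.04, 9.07, 8.75 and 8.83 in C3H/HeJ and 6.80, 7.23, 6.90 and 6.92 in DBA/2J (1.96 ± 0.16, adjusted p = 1.1e-05). Its second probe set differed by only 0.15 and did not pass, so the Ank3 difference belongs to 1 of 2 probe sets. Among 24 tested voltage-gated and related ion channels, limma called 0, with 3 at an unadjusted p under 0.05, and the preparation block called 2: Kcna1 higher (0.50 ± 0.15, 0.036 with the block) and Kcnma1 lower (-0.63 ± 0.20, 0.017 with the block).

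Other synaptic and axonal genes were among the 69. Kif1a, a motor for synaptic vesicle precursors, was higher by 1.32 ± 0.22 (adjusted p = 0.0062), and Atp2b2, a plasma membrane calcium pump, by 1.28 ± 0.15 (adjusted p = 0.00042). Dlgap4, a postsynaptic scaffold protein, was higher by 1.34 ± 0.16 (adjusted p = 0.00042). Kif5b, a kinesin heavy chain, was lower by 3.64-fold (-1.86 ± 0.31, adjusted p = 0.0048), and Ncs1, a neuronal calcium sensor, by 2.74-fold (-1.45 ± 0.26, adjusted p = 0.0083). Tenm1, a teneurin adhesion protein, read 4.99, 5.13, 5.79 and 5.24 in C3H/HeJ and 2.00, 4.68, 4.51 and 1.63 in DBA/2J, and it lost its call (2.08 ± 0.45, adjusted p = 0.035) when any preparation was left out. Tenm4, of the same family, was higher on 2 probe sets (1.18 ± 0.16 and 1.11 ± 0.21, adjusted p = 0.0015 and 0.012) and differed by -0.47 on the remaining one. Atp2b2, Dlgap4 and 1 Tenm4 probe set passed in all 4 fits without a preparation, whereas Kif1a and the other Tenm4 probe set did not without preparation 1 of either strain, nor that Tenm4 probe set without DBA/2J preparation 2 (0.067). Kif1a, Atp2b2, Dlgap4 and Tenm4 lie outside the rule for naming genes and were picked after their values were seen.

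In the insulin and growth factor list, 2 of 22 tested genes passed, both higher in C3H/HeJ (median of the list 0.02). Irs2, an adaptor that couples the insulin receptor to downstream kinases, read 7.52, 7.51, 7.24 and 7.32 in C3H/HeJ, against 3.61, 3.97, 5.03 and 4.86 in DBA/2J. The groups lay over 2 log2 units apart (3.03 ± 0.39, 8.16-fold, adjusted p = 0.00095). DBA/2J averaged 4.37, under the 6 other strain means, of which C57BL/6J had the lowest, 5.79. C3H/HeJ averaged 7.40, just above the 7.23 to 7.30 of the other strains but C57BL/6J. Hbegf, a ligand of the epidermal growth factor receptor, read 6.53, 7.5, 7.21 and 7.38 in C3H/HeJ and 5.68, 5.92, 5.79 and 5.78 in DBA/2J. C3H/HeJ stood well above and DBA/2J just below the other strains, which spanned 5.93 to 6.24 (1.36 ± 0.21, adjusted p = 0.004). Leaving out DBA/2J preparation 1 gave an adjusted p of 0.055.

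Neuropeptide genes that passed were lower in C3H/HeJ, 2 of 23 tested (median -0.05). Scg5, a chaperone of the prohormone convertase PC2, read 7.91, 8.25, 8.66 and 8.44 in C3H/HeJ and 9.17, 9.54, 9.21 and 9.40 in DBA/2J. No array overlapped (-1.02 ± 0.17, adjusted p = 0.005, 0.087 without C3H/HeJ preparation 1 and 0.07 without DBA/2J preparation 1). Penk, the enkephalin precursor, read 7.31, 7.32, 7.52 and 7.62 in C3H/HeJ, below the 8.31, 8.61, 7.99 and 8.17 of DBA/2J (-0.83 ± 0.18, adjusted p = 0.038, 0.39 without C3H/HeJ preparation 1, and 0.47 and 0.052 without DBA/2J preparation 1 or 2). Penk is also abundant in striatum and was the 1 gene past the test of 11 in the list of thalamus, cortex and striatum markers. The summed signal of that list overlapped, 1270 to 1460 in C3H/HeJ and 1350 to 1580 in DBA/2J. With the preparation block, 5 genes of the neuropeptide list passed, 1 higher and 4 lower.

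Gas5 was lower and Xrn1 higher in C3H/HeJ, the second with a size that depends on the scale. Gas5, a non-coding host gene of small nucleolar RNAs, read 6.43, 6.19, 6.0 and 6.15 in C3H/HeJ, against 8.56, 8.75, 8.74 and 8.96 in DBA/2J. This was the smallest p of the comparison (-2.56 ± 0.16, 5.89-fold lower, adjusted p = 2.3e-06). Both strain means lay within those of the other strains, which spanned 5.87 to 9.59, the highest that of C57BL/6J. It was the 1 gene past the test among 7 host genes of small RNAs, and the preparation block added Meg3 (0.62 ± 0.16, adjusted p = 0.012 with the block), whose second probe set differed by -0.62. Xrn1, a cytoplasmic exoribonuclease, read 5.52, 5.59, 5.49 and 5.50 in C3H/HeJ, but 0.38, 0.93, 3.61 and 1.49 in DBA/2J. DBA/2J was near the floor of the scale and varied by over 3 log2 units between arrays (3.92 ± 0.62, adjusted p = 0.0042, and 0.07 without DBA/2J preparation 1). Adding 16 or 64 signal units before the log2 brought the Xrn1 difference to 1.62 or 0.69 (adjusted p = 0.014 and 0.029), so neither its size nor its rank holds across scales. Ddx6, an RNA helicase of processing bodies, was higher on 2 of 3 probe sets, the larger by 1.92 ± 0.35 (adjusted p = 0.0097). The other called Ddx6 probe set differed by 1.87 ± 0.30 (adjusted p = 0.0043). Unlike the larger, it kept its call without C3H/HeJ preparation 1 and without DBA/2J preparation 2. Ybx1, a cold-shock RNA-binding protein chosen after its values were seen, was lower (-0.80 ± 0.15, adjusted p = 0.01), but at 0.056 to 0.11 without any 1 preparation.

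The early secretory pathway showed 1 gene up and 1 down of 33 tested, both over 4-fold. Srp9, a subunit of the signal recognition particle, read 9.28, 9.10, 9.31 and 9.15 in C3H/HeJ and 7.14, 6.70, 7.02 and 7.04 in DBA/2J. Its 2 groups were tight and 2.23 ± 0.17 apart (4.71-fold, adjusted p = 7.1e-06). Among the other strains, Srp9 was 6.99 in FVB/NJ and 7.12 in A/J, close to DBA/2J, and 8.56 to 8.96 in the other 4. Ergic1, a membrane protein that cycles between the endoplasmic reticulum and the Golgi, read 4.88, 4.79, 5.04 and 5.16 in C3H/HeJ, against 7.59, 6.72, 7.31 and 7.05 in DBA/2J (-2.20 ± 0.20, adjusted p = 3.2e-05). The other 6 strains lay at 7.03 to 7.15, so C3H/HeJ was the low strain. The list's median was -0.06, that of all tested -0.05.

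Further genes among the 30 belonged to no list. Gm15772 was higher in C3H/HeJ, at 11.23, 11.93, 11.50 and 11.43 against 9.36, 9.55, 9.51 and 9.44 in DBA/2J (2.06 ± 0.15, adjusted p = 7.1e-06). Ctse, the aspartic protease cathepsin E, read 6.57, 7.09, 6.41 and 6.5 in C3H/HeJ and 8.81, 8.72, 8.56 and 8.63 in DBA/2J. DBA/2J stood above the other strains, 6.17 to 7.30 (-2.04 ± 0.19, adjusted p = 3.5e-05). Serpina3n, a secreted protease inhibitor of reactive astrocytes, averaged 7.99 ± 0.07 in C3H/HeJ and 9.37 ± 0.15 in DBA/2J (-1.38 ± 0.17, adjusted p = 0.00058). Washc2, a subunit of the endosomal WASH complex, was lower by 2.52-fold (-1.34 ± 0.17, adjusted p = 0.0009), and Mprip, which binds myosin phosphatase, by 2.22-fold (-1.15 ± 0.14, adjusted p = 0.0005). Casp9, the initiator caspase of the mitochondrial death pathway, averaged 6.95 ± 0.33 in C3H/HeJ and 5.06 ± 0.23 in DBA/2J (1.88 ± 0.31, adjusted p = 0.0048), with its other 3 probe sets at 0.73 to 1.03. C3H/HeJ shared the high Casp9 level with BALB/cByJ (6.99), whereas the other 5 strains had 4.58 to 5.17. Nudt19, a hydrolase of coenzyme A, was higher by 1.67 ± 0.26 (adjusted p = 0.0035), and Zfp612, a zinc finger protein, by 2.09 ± 0.45 (adjusted p = 0.033). Zbtb7a was higher by 1.82 ± 0.29 (adjusted p = 0.0042). Spock1, a testican proteoglycan, was lower by 2.51-fold (adjusted p = 0.024), Cnpy2, a saposin-like protein, by 2.86-fold (adjusted p = 0.031), and AI506816 by 4.93-fold (adjusted p = 0.04). The kinase Wnk1 was higher by 2.78 ± 0.47 (adjusted p = 0.0063) and 2.17 on 2 of its 3 probe sets, and differed by -0.29 on the remaining one. On the probe set of largest difference, DBA/2J was dim, at 2.66, 2.46, 3.26 and 0.49. Over the alternative settings that Wnk1 difference ran from 0.47 to 3.47.

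**Figure D3:**
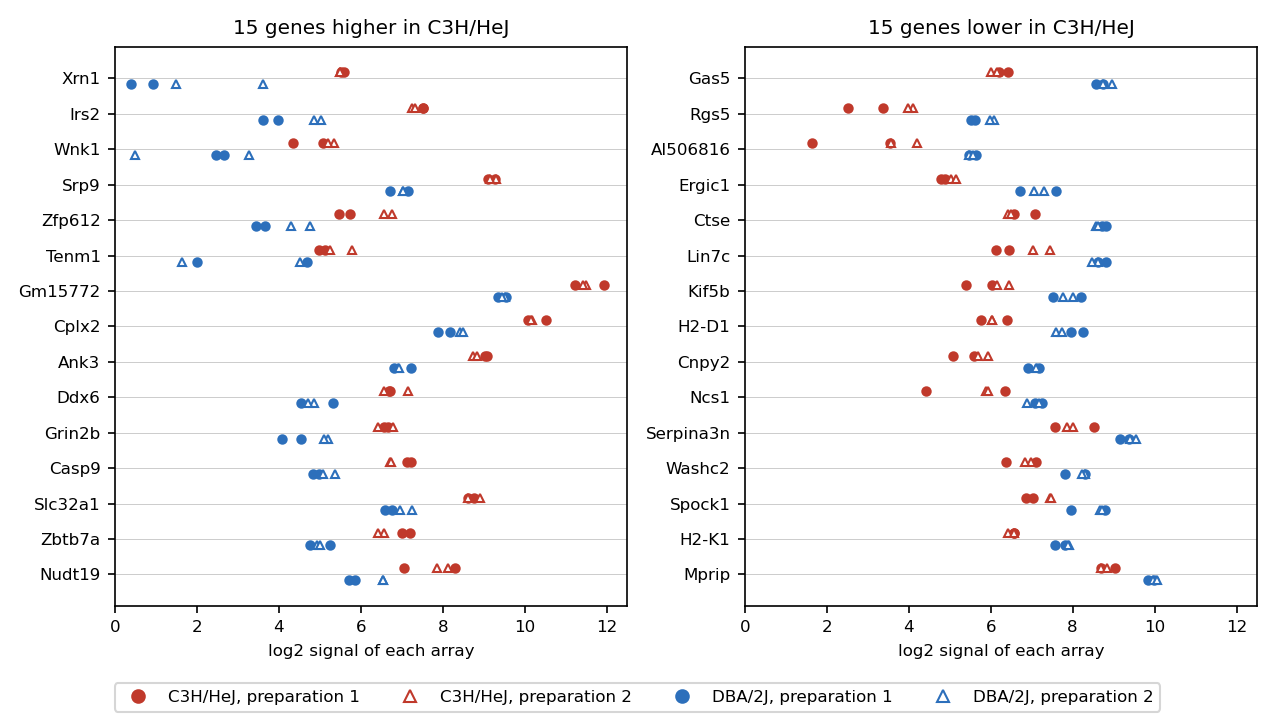
Log2 signal of each of the 4 C3H/HeJ arrays (red, upper point row of each gene) and the 4 DBA/2J arrays (blue, lower row) for the 15 named genes with the largest positive and the 15 with the largest negative differences. Filled circles are preparation 1 and open triangles preparation 2; at none of the 30 genes do the strains' arrays overlap, and the widest spread is that of Xrn1 in DBA/2J, 0.38 to 3.61.

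Genes expressed by non-neuronal cells differed in a few members, with marker sums that moved in part. Hba-a1, an alpha globin of red blood cells, read 10.40, 10.55, 10.32 and 10.29 in C3H/HeJ, against 9.19, 9.34, 9.44 and 9.37 in DBA/2J (1.06 ± 0.16, adjusted p = 0.0026). The summed signal of the 3 tested erythroid transcripts was 1680 to 1790 in C3H/HeJ and 866 to 1000 in DBA/2J, a ratio of 1.79, and 866 to 1280 in the other strains. Without Hba-a1 the sums of the other 2 were 290 to 442 in C3H/HeJ and 282 to 337 in DBA/2J, which overlapped. Hba-a1 kept its call without C3H/HeJ preparation 1 (adjusted p = 0.04) and lost it without DBA/2J preparation 1 (0.051). Rgs5, a regulator of G protein signalling in pericytes, was lower on both probe sets, by -2.30 ± 0.42 (adjusted p = 0.011) and -2.11 ± 0.37 (adjusted p = 0.0073). Both kept the call only without C3H/HeJ preparation 2, and without its preparation 1 the adjusted p were 0.18 and 0.075. On the brighter one C3H/HeJ read 4.52, 4.53, 4.41 and 4.65, and DBA/2J 6.47, 6.53, 6.56 and 6.99. Ptgds, the prostaglandin D synthase of leptomeninges and choroid plexus, was higher on 2 of 3 probe sets, by 1.18 ± 0.23 (adjusted p = 0.019) and 0.75 ± 0.15 (adjusted p = 0.025), and neither call held without preparation 1 of either strain. The larger also missed without DBA/2J preparation 2 (0.061).

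The marker lists themselves held few calls. Of 13 vascular, pericyte and meningeal markers, 1 (Rgs5) passed when each gene stood on its brightest probe set, and limma called 0 of 7 microglia, 14 astrocyte, 9 oligodendrocyte and 7 choroid plexus markers, with 1, 6, 0 and 1 at an unadjusted p under 0.05. Over all 7453 probe sets, 703 had such a p, and 287 (3.85%) passed with the preparation block. The preparation block called 2 astrocyte markers (Ntsr2 and Slc1a2), 1 choroid plexus marker (Ttr) and 2 vascular and meningeal markers, Rgs5 and Ptgds. Summed over the list, vascular markers read 2810 to 3310 in C3H/HeJ against 2240 to 2660 in DBA/2J, astrocyte markers 11500 to 14900 in C3H/HeJ against 10300 to 11200 in DBA/2J, and choroid plexus markers 971 to 1050 in C3H/HeJ against 887 to 935 in DBA/2J. Microglia markers ran the other way, 860 to 999 in C3H/HeJ against 1030 to 1120 in DBA/2J. Each of these 4 sums was led by 1 gene, and without it the strains overlapped. Without Ptgds, the vascular markers summed to 1590 to 1910 in C3H/HeJ and 1740 to 1960 in DBA/2J, and 6 of the 13 had a positive difference (median -0.01), with Rgs5 over 4-fold lower. Without Ttr, the choroid plexus markers summed to 610 to 683 in C3H/HeJ and 655 to 743 in DBA/2J, and 2 of the 7 had a positive difference (median -0.13). Without Apoe, a lipid carrier, the astrocyte markers summed to 6290 to 6980 in C3H/HeJ and 5920 to 6470 in DBA/2J, with 9 of 14 positive (median 0.2). Without Ctss, the protease cathepsin S, the microglia markers summed to 572 to 652 in C3H/HeJ and 628 to 664 in DBA/2J, with 2 of 7 positive (median -0.09). Oligodendrocyte sums overlapped with all members in, as did those of the 12 hippocampal subfield markers, 1720 to 2020 in C3H/HeJ against 1670 to 2010 in DBA/2J. None of those 12 passed in limma, 3 had an unadjusted p under 0.05, and the preparation block called 2, 1 higher and 1 lower. The higher was Neurod1, a factor of granule neurons (1.01 ± 0.28, adjusted p = 0.11, and 0.016 with the block). Man1a had the lowest difference of the list (-0.72 ± 0.26, adjusted p = 0.34, and 0.05 with the block). The part of these marker sums in the single-gene differences was not tested. Ttr, the choroid plexus carrier of thyroid hormone, differed by 0.79 ± 0.20 (adjusted p = 0.087, and 0.016 with the block).

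Several other lists had next to no calls. Mgst3, a microsomal glutathione transferase, was the 1 gene past the test of 33 antioxidant genes (-0.77 ± 0.17, adjusted p = 0.032, lost without any of the 4 preparations), and it neighbours Rgs5 among the tested genes of chromosome 1. Cplx2 and Thoc3 on chromosome 13 were the only other neighbouring pair among the 69, and both were higher. Ndufa7, a subunit of respiratory complex I, was the 1 gene of 54 in the respiratory chain and ATP synthase list, at 1.17 ± 0.19 (adjusted p = 0.0048, 0.083 without C3H/HeJ preparation 1 and 0.082 without DBA/2J preparation 1), and the block added Uqcrc2 of complex III. Monoamine, acetylcholine and stress signalling (18 tested), immediate early genes (18), imprinted genes (15) and sex-linked transcripts (4) had 0 called by limma, with 1, 0, 2 and 1 at an unadjusted p under 0.05. The preparation block called 3 imprinted genes, Meg3 higher and Impact and Nnat lower. Over all 5660 named genes, 32 were higher and 29 lower on the same one-probe-set basis, 1.08%, with a median of -0.06.

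**Figure D4:**
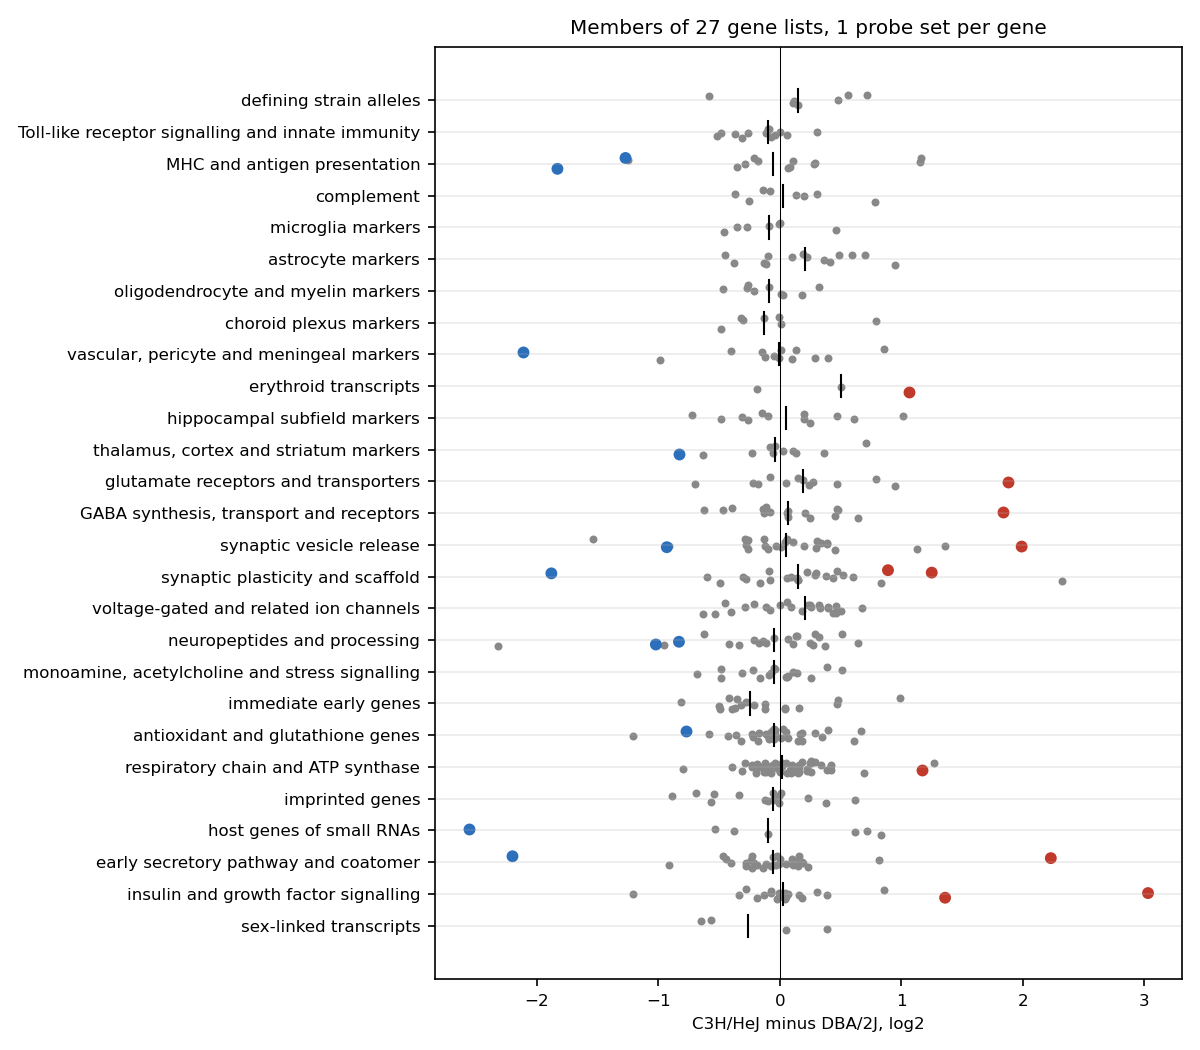
Difference C3H/HeJ minus DBA/2J (log2) for each tested member of the 27 gene lists, 1 probe set per gene. Red and blue points passed the test (higher and lower in C3H/HeJ), grey points did not, and each black tick is the list's median; most lists hold 0 to 2 coloured points among grey ones near 0.

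The other 6 strains show which of the 2 was unusual at the 98 probe sets. DBA/2J alone lay outside their range of means at 36 (36.7%, against 20.2% of all tested), and C3H/HeJ alone at 16 (16.3%, against 14%). Both lay outside at 24 (24.5%, against 8.06%), on opposite sides at 20 of these, and both within at 22 (22.4%, against 57.7%). With C3H/HeJ taken from preparation 2 alone, the 4 counts were 39, 13, 21 and 25. Part of the excess comes from the choice of probe sets, which used the levels of both strains.

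C57BL/6J, whose arrays did not enter the difference, read low beside DBA/2J at many probe sets that were higher in C3H/HeJ. Of those 60, C57BL/6J had the lowest mean of the other 6 strains at 31 (51.7%), against 23% of all tested, while BALB/cByJ was lowest at 6 (10%), against 30.9% of all tested. DBA/2J and C57BL/6J were the 2 lowest of the 8 strains at 30 of the 60 (50%), against 7.1% of all tested, a count that the choice of probe sets favours through DBA/2J. Without C3H/HeJ preparation 1, the count was 15 of 25 by either measure. Examples are Ank3 (7.23 in C57BL/6J, 8.88 to 9.14 in the other 5), Zbtb7a, a transcriptional repressor (4.69 against 6.53 to 6.90), and Cplx2 (8.40 against 8.92 to 10.65). At the 38 probe sets that were lower in C3H/HeJ, C57BL/6J was the highest of the 6 at 13 (34.2%), against 18% of all tested. The sense-strand controls of C57BL/6J, 5.11 to 5.64, lay near those of DBA/2J. So did those of FVB/NJ arrays 2 to 4 (5.09 to 5.62) and of the strain named only with the processing steps (4.91 to 5.48). That last strain was the lowest of the 6 at 10 of the 60 (16.7%), against 10.6% of all tested. The part of these controls in this pattern was not tested.

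**Figure D5:**
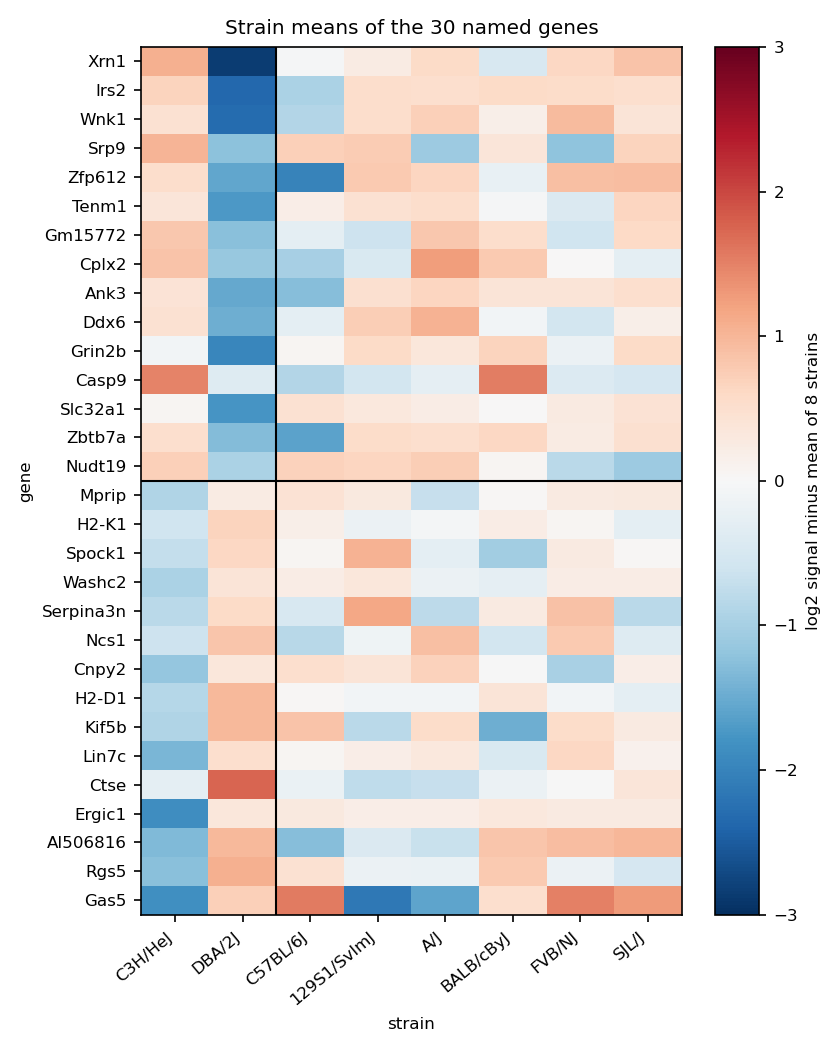
Mean log2 signal of the 8 strains for the 30 named genes with the largest differences, each gene's mean over the strains subtracted (colour scale from -3 to 3). Genes above the horizontal line were higher in C3H/HeJ and those below it lower; the darkest cell is that of DBA/2J at Irs2, Grin2b and Slc32a1, and that of C3H/HeJ at Ergic1.

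The levels that C3H/HeJ and DBA/2J hold in common were asked for by setting both against the other 6 strains. There, 64 of 7453 probe sets passed (0.859%), split evenly between higher and lower, and the preparation block gave 167. Only 5 of all 7453 (0.0671%) had the 4 preparations of this pair outside the 12 others, and 1 of these 5 passed the test. It was 4833420G17Rik, at 3.93 ± 0.14 in C3H/HeJ and 3.74 ± 0.30 in DBA/2J, against 4.12 to 6.03 in the other strains (-1.63 ± 0.22, adjusted p = 0.0016). The mean of 4.12 was that of the strain whose full name is given with the processing steps. It was close to this pair, and the rest averaged 5.4 to 6.03. The array values were 3.89, 3.77, 3.79 and 4.27 in C3H/HeJ and 2.85, 4.21, 3.47 and 4.43 in DBA/2J, which overlapped.

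Of 4 other genes past this test, Sbno1 and, on 1 probe set, Meg3 had both strain means below those of the other 6, and Nefl and Pdxdc1 had a further strain close by. On 1 of its 3 probe sets past this test, Pdxdc1, a decarboxylase-domain protein, differed by 4.18 ± 0.17 from the other 6 (adjusted p = 6e-09), with BALB/cByJ also high. Its other 2 probe sets ran the opposite way, at -3.13 ± 0.43 and -1.45 ± 0.16. Sbno1, a helicase-like regulator, averaged 4.82 ± 0.30 in C3H/HeJ and 4.53 ± 0.67 in DBA/2J, below the other strain means of 5.54 to 5.98 (-1.11 ± 0.22, adjusted p = 0.025). Nefl, the light neurofilament chain, averaged 8.18 ± 0.21 in C3H/HeJ and 8.27 ± 0.14 in DBA/2J, near the 8.31 of C57BL/6J (1.2 ± 0.13, adjusted p = 0.00028). A probe set of Meg3, a maternally expressed non-coding RNA, averaged 8.10 ± 0.09 in C3H/HeJ and 8.73 ± 0.03 in DBA/2J, both below the other means of 8.82 to 9.84 (-1.03 ± 0.09, adjusted p = 2.8e-05). A brighter Meg3 probe set also passed (-0.52 ± 0.09, adjusted p = 0.013). There C3H/HeJ, at 10.24, lay within the other means of 10.06 to 10.89, and DBA/2J, at 9.62, below them. These 4 genes were picked after their values were seen. Some of the 64 rest on 1 strain: Grin2b, Slc32a1 and Irs2 passed through DBA/2J and Ergic1 through C3H/HeJ.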

How the data were processed

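Each array's value table was deposited as linear signal intensities per probe set, made by the authors with MAS5 per the submitters' processing notes; its version and scaling target, and any detection calls, were not given in the sources used here, and all arrays share nearly the same trimmed mean. The number of arrays limits the precision. Of 12422 probe sets that are not controls, the 60% with the highest mean log2 signal were tested (7453, a limit near 21.3 signal units). Values under 1 were set to 1 (2.14% of values), log2 taken, and duplicate arrays of a cRNA preparation averaged. The 16 preparations of 8 strains (C3H/HeJ, DBA/2J, 129S1/SvImJ, A/J, BALB/cByJ, C57BL/6J, FVB/NJ and SJL/J) were fitted with limma 3.58.1 in R 4.3.3 (moderated test with a variance trend, Benjamini-Hochberg adjustment over all tested). The script was tested on simulated data. Preparation numbers pair the strains, since the design text ties each number to a synthesis round; the difference between preparations correlated across probe sets at r = 0.384 between C3H/HeJ and DBA/2J. Arrays with the same number also share a title date in C3H/HeJ and DBA/2J. Arrays 3 and 4 of BALB/cByJ and array 4 of FVB/NJ bear later dates than arrays 3 and 4 of this pair. The block level of preparation 2 thus joins arrays of unlike dates. In FVB/NJ, array 2 was assigned to preparation 1 by its number, but its title bears the day of array 3 in C3H/HeJ and DBA/2J. Its sense-strand controls read 5.33, against 7.39 on FVB/NJ array 1 and 5.09 on array 3, so that assignment is uncertain. With FVB/NJ left out of the fit, 87 probe sets passed for this pair. Genes were named through the platform annotation: 10833 probe sets had 1 symbol, 396 several and 1193 no entry. Array symbols can be old. Gene lists took the brightest probe set per gene.

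Genes were named by a fixed rule: the 15 largest called differences in each direction, up to 3 genes of smallest p in each list with any further called member, shared genes whose 4 preparations lay outside the other 12, and all members of the strain allele and sex-linked lists. The strains, lists and tests were chosen with earlier results of these data known. Alternatives were median centring, quantile normalization, other filters and offsets, replicate blocks, single preparations and leaving out arrays, preparations or strains. Counts for lists and strain positions without C3H/HeJ preparation 1, and marker sums without their leading gene, were added after seeing the data.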

Additional observations from a re-analysis of the deposited data

Results flagged for a closer look

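Within the 60 groups of 4 arrays formed by the 30 named genes of largest difference, 3 held an array far from the other 3; chance alone gives about 1 in 20. DBA/2J array 2 read 7.81 for Washc2, against 8.22 to 8.30 on the other DBA/2J arrays. The same array read 7.95 for Spock1, a testican proteoglycan, against 8.67 to 8.78. C3H/HeJ array 3 read 6.42 for H2-K1, against 6.56 to 6.57. In all 3 cases the array stayed on its own strain's side. Outside the comparisons, the sense-strand control probe sets of actin and Gapdh averaged 7 on C3H/HeJ arrays 1 and 2, against 5.28 to 5.64 on the DBA/2J arrays.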

How the results depend on the processing

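The count of 98 was 287 with the preparation number as replicate block, 546 on single arrays with array number as replicate block, 173 with preparation as a random block, 227 and 218 on preparation 1 or 2 alone, and 61 with only these 2 strains in the fit; leaving out an array or a preparation gave 29 to 144. The 64 probe sets of both strains against the other 6 became 167 with the replicate block, 311 with the array block, 97 with the random block, 199 on preparation 2 alone and 38 without a variance trend; leaving one out gave 32 to 68. Fewer samples enter some of these fits; otherwise the cause was not tested. Median centring, quantile normalization, the filters, the offsets and leaving out BALB/cByJ or FVB/NJ kept both counts within 1.5 times, and the 98 called for this pair kept their sign in every fit that measured them. The size of a difference could still move, and not only at Xrn1. Over the settings it ran from 0.42 to 2.8 for Tenm1, 0.75 to 2.62 for Zfp612 and 1.44 to 3.72 for Irs2. It ran from -2.96 to -0.56 for AI506816, and from -2.85 to -0.66 and -2.25 to -0.91 on the Rgs5 probe sets. Signs turned only for genes that did not pass. On preparation 1 alone Myo5a was -0.07; on preparation 2 alone Irak1 was 0.02, Lbp 0.12, Pdgfra 0.1 and Drd2 -0.46. Leaving out an array or a preparation gave ranges across 0: Lbp -1.01 to 0.05, Csf1r -0.58 to 0.04, Pdgfra -1.12 to 0.18, Bpgm -0.54 to 0.15, Drd2 -0.32 to 0.54, Myo5a -0.25 to 0.5, Mal -0.57 to 0.14, Eif2s3x -0.05 to 0.16 and 4833420G17Rik -0.15 to 0.53. Signal over background limits the dim probe sets, and with 1 pool per strain no result speaks for single animals.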
